A study of Rattus norvegicus with 10 samples.

Results

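Dbp, Tef and Hlf encode the PAR bZIP transcription factors, and Nfil3 (also called E4BP4) encodes the repressor that binds the same DNA sites. The array carried 9 probe sets assigned only to one of these 4 genes of the 14217 genes with such a probe set, out of 31042 probe sets other than controls, with 1 for Dbp, 3 for Tef, 4 for Hlf and 1 for Nfil3. They were measured in 10 livers of male rats aged 13 weeks, 1 array per liver. The N-group (5 livers, animals 1, 4, 7, 10 and 13) was fed instant noodle together with its seasonings, with noodle making up 30 wt% of the feed and fat giving 26% of the energy, over 30 days. The C-group (5 livers, animals 2, 5, 8, 11 and 14) was fed the same noodle feed with the seasonings left out. Intake was matched between the diets by pair feeding near 60 g/kg daily, and light alternated with dark every 12 h. The array codes place all N-group arrays in row A and all C-group arrays in row B; effects of the row cannot be told apart from those of the diet. The rat strain, and the time of day at which the livers were taken, are not given in the sources used here.

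PAR bZIP factors carry a domain rich in proline and acidic residues beside a basic leucine zipper, and they activate genes through a DNA element called the D-box. In liver their transcription is driven by the clock proteins CLOCK and BMAL1 through E-boxes and follows a strong daily rhythm. Nfil3 competes for the D-box and represses, and its own transcription is repressed by REV-ERB and raised by ROR receptors through the RRE element, so that its daily rhythm runs opposite to that of Dbp. In mouse liver the PAR bZIP factors are known for driving daily rhythms in drug-metabolizing and lipid genes.

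The bases before the transcription start of the members are shown first because these genes are known to be driven through E-boxes and the RRE. RefSeq's promoter table of the GRCr8 assembly held 3 of the 4 genes, and each window below is the 250 bases before the start site on the plus strand, 5′ to 3′, in lower case. Capitals mark an E-box (CACGTG). The Dbp window lies at chr1:105312006-105312255, the Tef window at chr7:115206577-115206826 and the Nfil3 window at chr17:12432126-12432375. The Hlf promoter was not analysed here.
Dbp: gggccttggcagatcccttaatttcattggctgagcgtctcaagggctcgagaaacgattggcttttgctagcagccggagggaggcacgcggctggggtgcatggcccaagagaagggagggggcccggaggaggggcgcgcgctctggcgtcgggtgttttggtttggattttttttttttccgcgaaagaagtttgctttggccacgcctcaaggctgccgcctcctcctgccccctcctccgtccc
Tef: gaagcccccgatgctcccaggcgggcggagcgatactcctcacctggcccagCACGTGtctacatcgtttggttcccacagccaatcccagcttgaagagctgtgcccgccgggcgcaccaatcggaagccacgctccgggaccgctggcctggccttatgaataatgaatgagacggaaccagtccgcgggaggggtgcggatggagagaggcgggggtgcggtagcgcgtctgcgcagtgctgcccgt
Nfil3: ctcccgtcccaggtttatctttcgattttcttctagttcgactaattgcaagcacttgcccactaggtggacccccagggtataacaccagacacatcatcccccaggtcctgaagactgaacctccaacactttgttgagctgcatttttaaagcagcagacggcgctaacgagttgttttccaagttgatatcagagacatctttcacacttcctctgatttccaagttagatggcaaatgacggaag

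Both strands were searched for the E-box CACGTG, the D-box TTANGTAA and the RRE core AGGTCA; no match of one overlapped a match of another in these windows. The Tef window held 1 E-box, whose first base lies at -198 from the start site. Of 33469 windows of this length in the table, 5.59% held the E-box, 2.04% the D-box and 14.1% the RRE core. The Dbp and Nfil3 windows held none of these letters, which says nothing about sites elsewhere in the genes. Guanine and cytosine made up 61.2% of the Dbp window, 65.6% of the Tef window and 46.4% of the Nfil3 window.

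In the deposited table, 13.0% of probe sets varied (SD over the 10 arrays above 0.01 log2 units, 4050 probe sets), and the rest were near-constant. Of the 9 probe sets of the 4 genes 8 varied, the exception being the Hlf probe set 1384811_at at 5.71 in every liver. Array medians lay between 6.47 and 6.48, pairwise correlations between arrays between 0.990 and 0.998, and 0 pairs of arrays were identical. The samples are labelled liver, although brain is named in the description of RNA extraction. All 8 hepatocyte markers were measured and had a median level of 13.1, with a mean over the list of 12.8 to 12.9 in N-group livers and 12.7 to 12.9 in C-group livers. The 7 brain markers measured had a median level of 6.11, under the array medians, with a list mean of 6.22 to 6.35 in N-group livers and 6.22 to 6.28 in C-group livers. The 5 macrophage markers measured had a list mean of 8.15 to 8.83 in N-group livers and 8.32 to 8.63 in C-group livers. At an unadjusted p under 0.05 by limma, 1 hepatocyte marker (Apoa1) and 0 brain or macrophage markers passed, and the exact permutation test gave the same counts of 1, 0 and 0 at a p under 0.05. In whole liver, fewer cells of a type and less RNA per cell cannot be told apart.

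Dbp, the PAR bZIP factor with the strongest known daily rhythm, had the largest absolute difference between the diets of all 31042 probe sets. Its log2 signal was 5.97, 5.94, 6.03, 7.05 and 6.94 in N-group animals 1, 4, 7, 10 and 13, against 9.08, 9.43, 9.32, 7.28 and 9.09 in C-group animals 2, 5, 8, 11 and 14. Every N-group liver lay under every C-group liver, and control animal 11 stood next to N-group animals 10 and 13 rather than with the other controls. The means were 6.39 ± 0.56 in N-group and 8.84 ± 0.88 in C-group livers (SD, n = 5 each). The N-group minus C-group difference was -2.46 ± 0.46 log2 units (SE, 95% interval -3.50 to -1.41). Since 3 of the N-group values lay under the array medians, no fold is given for Dbp, and the size of its log2 difference is uncertain.

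The plot of signals by liver shows the 4 genes with the animal numbers.

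**Figure D1:**
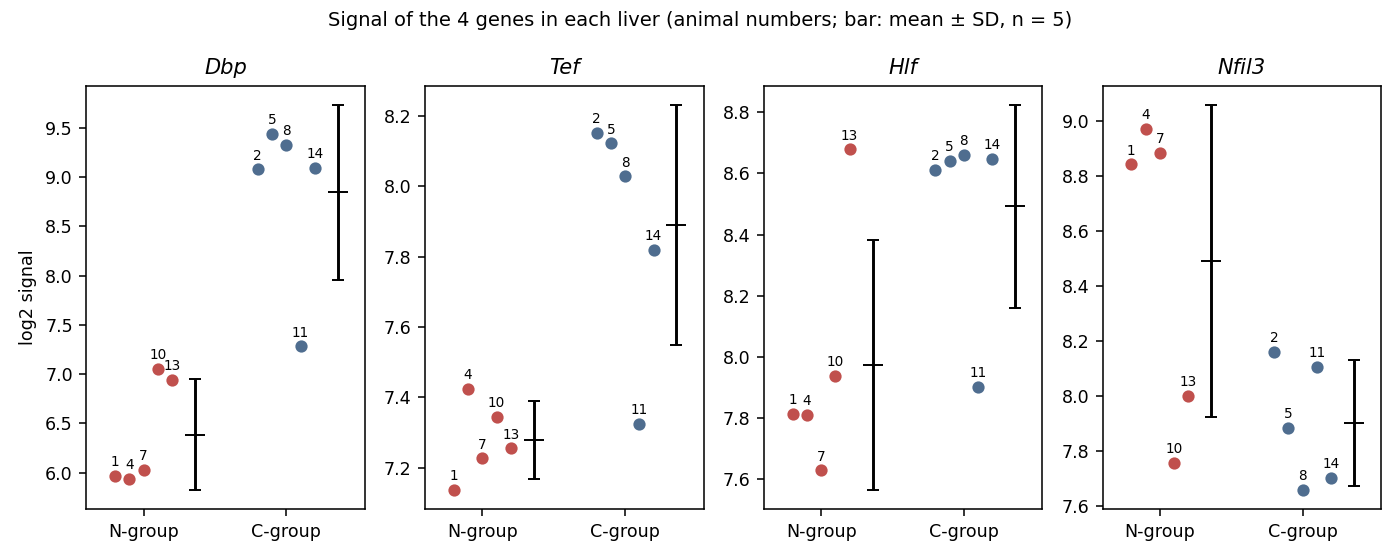
Log2 signal (vertical axis, separate scale per gene) of Dbp, Tef, Hlf and Nfil3 in 5 N-group and 5 C-group livers, 1 point per liver with its animal number, for the probe set with the highest mean of each gene; the bar gives mean ± SD. Dbp does not overlap between the diets, control animal 11 lies next to the N-group livers for Dbp and among them for Tef and Hlf, and Nfil3 is highest in N-group animals 1, 4 and 7.

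Over all 31042 probe sets the limma fit called 0 probe sets at an adjusted p under 0.05 (0% called), so 0 of the 9 member probe sets passed. Dbp had an unadjusted p of 0.000545 in this fit, the 31st smallest, and an adjusted p of 0.515. Its exact two-sided permutation p was 0.00794, the smallest that all assignments of 5 against 5 livers can give, and 0.3% of all probe sets were lower without overlap. Among the 4050 varying probe sets alone, 13 were called (0.321%), and Dbp was 1 of the 5 lower in N-group livers (0.123%), with an adjusted p of 0.0477 by limma. That call was lost when any 1 liver other than N-group animal 10 or control animal 11 was left out, with adjusted p between 0.0572 and 0.172. Without control animal 11 the difference was -2.85 ± 0.29, and Dbp was called over all probe sets too (adjusted p = 0.0446 by limma, 10 probe sets or 0.0322% called, 0.0193% as lower). That animal was singled out by its low values in these same genes, so calls without it are descriptions.

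At an unadjusted p under 0.05, 5 of the 9 member probe sets passed, all of them lower in N-group livers, against 1.92% of all probe sets in that direction. The exact permutation test also had 5 of the 9 at a p under 0.05, again all lower, against 1.66% of all probe sets in that direction. The members were chosen with earlier results of these data known, and several probe sets measure the same gene, so this count is a description. Most probe sets of that background were near-constant, while 8 of the 9 member probe sets varied, so the shares do not compare like with like. For lower signals without overlap, the share was 0.3% of all but 1.26% of varying probe sets. The 7 varying probe sets of the activators had a median difference of -0.50, against 0.0079 for all varying probe sets and 1.91e-06 for all probe sets.

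Tef, thyrotroph embryonic factor, was lower in the N-group mean in each of its 3 probe sets. The brightest, 1390819_at, had log2 signals of 7.14, 7.43, 7.23, 7.34 and 7.26 in N-group animals 1, 4, 7, 10 and 13, against 8.15, 8.12, 8.03, 7.32 and 7.82 in C-group animals 2, 5, 8, 11 and 14. The 5 N-group livers lay close together, 4 controls lay above them all, and control animal 11 fell among them. The difference was -0.61 ± 0.16 log2 units (SE, 5 livers per group), or 1.53-fold lower in N-group livers, with an adjusted p of 0.760 by limma and an exact permutation p of 0.0238.

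The other Tef probe sets had the same shape. In 1369919_at the N-group livers ranged from 6.13 to 6.32 and the C-group livers from 6.32 to 6.80, where animal 11 was again lowest. Its difference was -0.46 ± 0.09 (adjusted p = 0.515 by limma, exact permutation p = 0.0159), and its N-group levels lay under the array medians. In 1385374_at the N-group livers ranged from 6.61 to 6.89 and the C-group livers from 6.64 to 7.56, with a difference of -0.50 ± 0.17 (adjusted p = 0.927 by limma, exact permutation p = 0.0397). Among varying probe sets alone the 3 adjusted p-values by limma were 0.0992, 0.0718 and 0.199, in the order 1390819_at, 1369919_at and 1385374_at, and none was called.

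Without control animal 11, Tef was called in all 3 probe sets among the varying ones (adjusted p = 0.00684, 0.00392 and 0.00720 by limma in the same order, where 1.38% of varying probe sets were called as lower). Over all probe sets only 1369919_at was called without that animal (adjusted p = 0.0288 by limma). The Tef differences without it were -0.75 ± 0.08, -0.55 ± 0.04 and -0.66 ± 0.08 log2 units.

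Hlf, hepatic leukemia factor, overlapped between the diets. Its brightest probe set, 1386641_at, had log2 signals of 7.81, 7.81, 7.63, 7.94 and 8.68 in N-group animals 1, 4, 7, 10 and 13, against 8.61, 8.64, 8.66, 7.90 and 8.65 in C-group animals 2, 5, 8, 11 and 14. The controls other than animal 11 stood within 8.61 to 8.66, N-group animal 13 lay just above them, and animal 11 lay with the other N-group livers. The difference was -0.52 ± 0.23 log2 units (SE, 5 livers per group), with an adjusted p of 0.9997 by limma, an exact permutation p of 0.0873 and a 95% interval from -1.04 to 0.0047.

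In the Hlf probe set 1385585_at the N-group livers ranged from 7.73 to 8.35 and the C-group livers from 7.72 to 8.67, with a difference of -0.36 ± 0.19. In 1374709_at they ranged from 6.67 to 7.10 and from 6.79 to 7.34 for N-group and C-group, with a difference of -0.32 ± 0.12. N-group animal 13 was the highest N-group liver and control animal 11 the lowest control in all 3 varying probe sets. The fourth, 1384811_at, did not vary and carries no information on the diets.

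Without N-group animal 13 the difference of 1386641_at was -0.70 (adjusted p = 0.0916 by limma among varying probe sets), and without control animal 11 it was -0.67 (adjusted p = 0.136). Of the Hlf probe sets, 1374709_at was called without control animal 11 among the varying ones (-0.42 ± 0.08, adjusted p = 0.0452 by limma). In that fit 1.38% of varying probe sets were called as lower.

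The plot of differences sets the varying probe sets side by side.

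**Figure D2:**
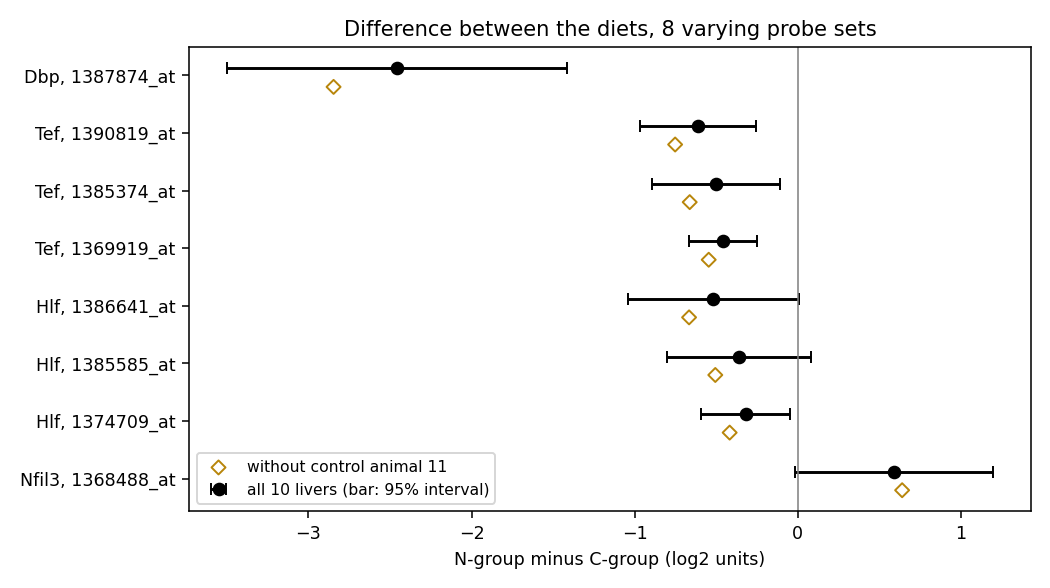
N-group minus C-group difference in log2 units (horizontal axis) of the 8 varying probe sets, with points and 95% intervals from the limma fit of all 10 livers and open diamonds for the fit without control animal 11. The 7 activator probe sets lie under 0 (from -2.46 to -0.32), Nfil3 lies above it (0.59), and each diamond lies farther from 0 than its point.

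Nfil3, the D-box repressor, had a higher mean in N-group livers, carried by 3 of them. Its log2 signal was 8.84, 8.97, 8.88, 7.76 and 8.002 in N-group animals 1, 4, 7, 10 and 13, against 8.16, 7.88, 7.66, 8.11 and 7.70 in C-group animals 2, 5, 8, 11 and 14. Animals 1, 4 and 7 stood above every control, while animals 10 and 13 fell inside the control range. The means were 8.49 ± 0.57 in N-group and 7.90 ± 0.23 in C-group livers (SD, n = 5 each).

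The Nfil3 difference of 0.59 ± 0.27 log2 units, or 1.50-fold, did not pass (adjusted p = 0.9997 by limma, exact permutation p = 0.103, 95% interval -0.018 to 1.20). Among varying probe sets alone its adjusted p by limma was 0.339. It was 0.64 ± 0.29 without control animal 11, which lay inside the range of the other controls for this gene, and 0.77 without N-group animal 10 (adjusted p = 0.130 by limma among varying probe sets).

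The 3 activators and Nfil3 were set against each other by expressing each gene relative to its own C-group mean, since levels of different probe sets cannot be compared. The mean of Dbp, Tef and Hlf was -1.44, -1.35, -1.45, -0.96 and -0.78 log2 units in N-group animals 1, 4, 7, 10 and 13, against 0.21, 0.32, 0.26, -0.91 and 0.11 in C-group animals 2, 5, 8, 11 and 14. The controls other than animal 11 were above every N-group liver, and animal 11 lay between N-group animals 10 and 13. Dbp contributes most to this mean because its difference is the largest.

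The activator mean minus Nfil3 was -2.38, -2.42, -2.43, -0.82 and -0.88 in N-group animals 1, 4, 7, 10 and 13, against -0.05, 0.34, 0.51, -1.11 and 0.31 in C-group animals 2, 5, 8, 11 and 14. N-group animals 1, 4 and 7 combined the lowest activator means with the highest Nfil3. N-group animals 10 and 13 and control animal 11 had a low activator mean with Nfil3 near the control mean. The single activators did not all follow this. Tef in animal 4 (-0.46) was the highest of the N-group, and Hlf in animal 13 lay above the C-group mean (0.19). The N-group minus C-group difference of this balance was -1.78 log2 units with all livers, and leaving out each liver in turn gave values from -2.06 to -1.62. It is given without a p because the genes were grouped with their directions known.

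**Figure D3:**
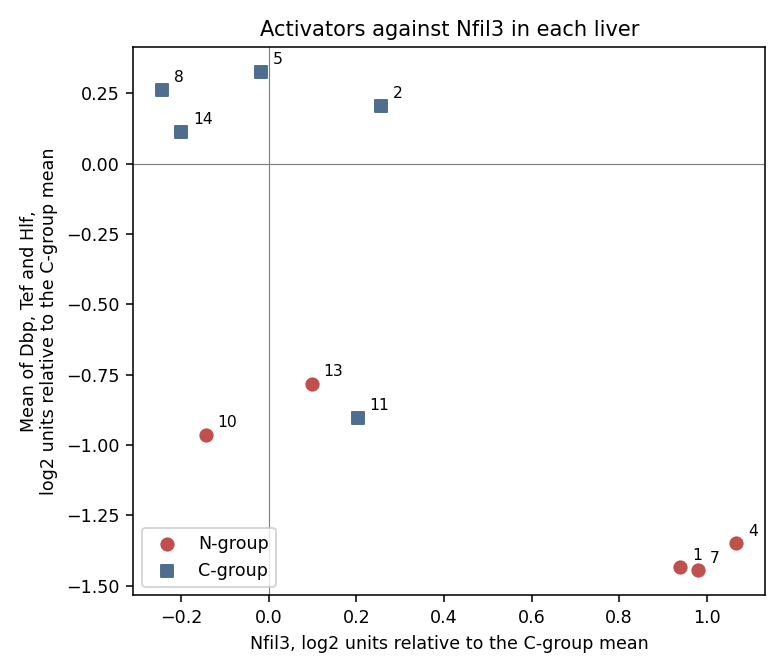
Mean of Dbp, Tef and Hlf (vertical axis) against Nfil3 (horizontal axis), both in log2 units relative to the C-group mean, 1 point per liver with its animal number, N-group as circles and C-group as squares. N-group animals 1, 4 and 7 lie at the lower right, 4 controls at the top, and N-group animals 10 and 13 with control animal 11 at the lower left.

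Array positions follow animal numbers within each diet, so the members are also given for low and high animal numbers apart. No label names such sets, and the cut between animals 7 and 8 was set here. Array positions 3 and 4 fall in both sets (N-group animals 4 and 7, control animals 8 and 11), so the cut does not part the positions. The cut also parts the N-group livers with high Nfil3 from the others. For Dbp the difference was -3.28 in animals 1 to 7 (3 N-group and 2 C-group livers), against -1.57 in animals 8 to 14 (2 N-group and 3 C-group livers). The brightest Tef probe set differed by -0.87 and -0.42, and the brightest Hlf probe set by -0.88 and -0.10. The Nfil3 difference was 0.88 in the low and 0.06 in the high numbers.

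All differences kept their sign in both sets and were smaller in animals 8 to 14, which include control animal 11. Without that animal the values within animals 8 to 14 were -2.21 for Dbp, -0.62 for Tef, -0.35 for Hlf and 0.20 for Nfil3. With the set as a block, the differences were -2.42 ± 0.49, -0.65 ± 0.16, -0.49 ± 0.24 and 0.47 ± 0.18, and 0 of the 4 passed over all probe sets or among varying ones by limma, where Dbp had an adjusted p of 0.0573 and 0.543% of varying probe sets were called. Whether the 2 sets differ in the effect of the diet was not tested.

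Control animal 11 was lowest of the controls in all 7 varying activator probe sets, and in 6 of them it lay under the highest N-group liver, the exception being Dbp. Its array also had the lowest median over varying probe sets, 8.07, within a range of 8.10 to 8.27 in N-group and 8.07 to 8.30 in C-group arrays. The part of this in its low activator signals was not tested. Without this animal 5 of the 7 activator probe sets did not overlap between the diets, against 1 of 7 with it. The background for lower signals without overlap among varying probe sets was 4.05% without the animal and 1.26% with it. The animal was singled out from these same values, and leaving out the lowest control cannot lower such a count. Results without it, here and for the other genes, are therefore descriptions and no added evidence.

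Within the diets, the livers' deviations from their diet mean were compared between the 4 genes in 6 pairs. Dbp and Hlf had a Pearson r of 0.812 (exact within-diet permutation p = 0.0167, adjusted p = 0.0590 over 6 pairs, 10 livers) and a Spearman rho of 0.709 (exact p = 0.0335, adjusted p = 0.0669). Dbp and Nfil3 had a Pearson r of -0.663 (exact p = 0.0197, adjusted p = 0.0590) and a rho of -0.794 (exact p = 0.0166, adjusted p = 0.0606). Without the 2 livers farthest from the Dbp median, N-group animal 4 and control animal 11, r was 0.653 for Dbp and Hlf and -0.917 for Dbp and Nfil3, with diet means taken again over the livers kept. No pair passed after adjustment.

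Dbp and Tef had an r of 0.779 (exact p = 0.0617, adjusted p = 0.121) and a rho of 0.418 (exact p = 0.244, adjusted p = 0.366). This r was 0.180 without control animal 11 and 0.491 without it and N-group animal 4, so its size rested on control animal 11. The Dbp and Nfil3 r was -0.933 without it, with N-group animals 1, 4 and 7 at one end and N-group animals 10 and 13 at the other.

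Hlf and Nfil3 had an r of -0.586 (exact p = 0.0862, adjusted p = 0.121) and a rho of -0.673 (exact p = 0.0202, adjusted p = 0.0606), and r was -0.717 without the 2 farthest livers, N-group animal 13 and control animal 11. Tef and Hlf had an r of 0.544 (exact p = 0.101, adjusted p = 0.121) and a rho of 0.345 (exact p = 0.363, adjusted p = 0.436). This r too rested on control animal 11, since it was -0.02 without that animal and -0.0088 without it and control animal 2. Tef and Nfil3 had an r of -0.123 (exact p = 0.618, adjusted p = 0.618), which was 0.087 without control animal 11 and -0.04 without it and control animal 2. Its rho was -0.0061 (exact p = 1, adjusted p = 1).

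Among 2609 other varying genes, likeness to each member was measured as Pearson's r over the 10 livers, which all share the diet difference and the authors' normalization. It is a description. Closest to Dbp were Per3, a clock repressor (0.987), Il1r1, the interleukin 1 receptor (0.981), and Enpp2, which makes lysophosphatidic acid (0.981). Most opposed to it were the clock activators Bmal1 (-0.984) and Npas2 (-0.977) and the taurine transporter Slc6a6 (-0.965). After centring on the diet means these 6 values were 0.976, 0.918, 0.947, -0.930, -0.931 and -0.844. The genes were picked by r over the same livers, so the centred values are no separate test. Control animal 11 was kept in them, and how far they rest on it was not tested.

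Closest to Tef were Herpud1, an endoplasmic reticulum stress protein (0.944), Il1r1 (0.940) and Per3 (0.936), and most opposed were Kynu, kynureninase (-0.947), Slc6a6 (-0.938) and Poteml2 (-0.904). Closest to Hlf were Zfp354a, a zinc finger protein (0.942), Mcur1, a mitochondrial calcium uniporter regulator (0.941), and the clock repressor Per2 (0.929). Most opposed to Hlf were Greb1l (-0.921), the mitochondrial chaperone Clpx (-0.910) and Npas2 (-0.903).

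Nfil3 had other neighbours. The closest were Tpst2, a tyrosylprotein sulfotransferase (0.972), Prr13 (0.951) and the clock repressor Cry1 (0.947), and the most opposed were the hypoxia factor Hif1a (-0.950), the kinase Chuk (-0.908) and Errfi1, which restrains EGF receptor signalling (-0.902).

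Known regulators of the 4 genes were counted from fixed lists with 1 probe set per gene. Most of those measured varied, while most of all probe sets were near-constant. The shares of all probe sets given beside these counts therefore do not compare like with like. The 3 activators that act through E-boxes, Clock, Bmal1 and Npas2, all had higher means in N-group livers, with a median difference of 1.02. Of these, 3 passed at an unadjusted p under 0.05 by limma (2.56% of all probe sets did so in that direction), 0 passed after adjustment, and 2 did not overlap between the diets (0.47% of all probe sets were higher without overlap). Bmal1, the partner of CLOCK, was at 7.47 ± 0.37 in N-group and 6.33 ± 0.32 in C-group livers (SD, n = 5 each), a difference of 1.14 ± 0.21. Clock differed by 0.37 ± 0.07.

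Of 8 listed E-box repressors 7 were measured and 5 varied, 4 of them lower and 1 higher in the N-group mean, with a median of -0.75 for the varying ones. At an unadjusted p under 0.05 by limma, 2 were lower and 1 was higher (1.92% and 2.56% of all probe sets), and 0 passed after adjustment. The 2 with the smallest p were Bhlhe40 (-0.79 ± 0.17) and Per3 (-1.05 ± 0.25), and the higher one was Cry1 (0.44 ± 0.17).

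The receptors that act on Nfil3 through the RRE had lower REV-ERB and higher ROR signals. Nr1d2, which encodes REV-ERB beta, was at 8.33 ± 0.43 in N-group and 9.39 ± 0.24 in C-group livers (SD, n = 5 each), a difference of -1.06 ± 0.22 without overlap. Nr1d1, REV-ERB alpha, differed by -0.96 ± 0.30 and Rora, a ROR receptor that activates through the RRE, by 0.36 ± 0.13. Of the 3 measured of 4 listed, 2 were lower and 1 was higher at an unadjusted p under 0.05 by limma, and 0 passed after adjustment. The shares of all probe sets were 1.92% lower and 2.56% higher. Among varying probe sets a second probe set of Nr1d2, 1370541_at, was called with Dbp (-1.004, adjusted p = 0.0474 by limma), a probe set named after its value was seen.

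The exact permutation test had 3 E-box activators higher, 2 E-box repressors lower, and 2 receptors lower and 1 higher at a p under 0.05 (1.66% of all probe sets were lower and 2.25% higher by it). Without control animal 11, all 3 E-box activators were called as higher among varying probe sets (0.691% of them were). In the same fit 2 E-box repressors and 1 receptor were called as lower (1.38% of varying probe sets were).

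Genes known as targets of PAR bZIP factors or of Nfil3 in liver had no common direction. Of 13 listed 12 were measured and 9 varied, 5 lower and 4 higher in the N-group mean, with a median difference of -0.07 for the varying ones and -0.00065 for all. At an unadjusted p under 0.05 by limma, 2 were lower and 1 was higher, 0 passed after adjustment, and by the exact permutation test 1 was lower and 1 higher at a p under 0.05. Of all probe sets, 1.92% were lower and 2.56% higher by limma, and 1.66% and 2.25% by the exact test. Acot1, an acyl-CoA thioesterase, was lower by both tests and the only lower target gene by the exact test. It was near-constant, and its difference of -0.00018 has no measurable size.

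Por, the electron donor of liver cytochromes P450, had the largest difference of the target genes, at 7.66 ± 0.11 in N-group and 8.19 ± 0.47 in C-group livers (SD, n = 5 each). The difference was -0.53 ± 0.21 (adjusted p = 0.9997 by limma). Por was called as lower without control animal 11 among varying probe sets (-0.72, adjusted p = 0.00989 by limma); that animal had 7.41, while N-group livers ranged from 7.53 to 7.82. Por was the 1 target gene called there, where 1.38% of varying probe sets were called as lower.

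Acot3, another acyl-CoA thioesterase, was the target gene higher at an unadjusted p under 0.05, with a difference of 0.17 ± 0.06. Cyp7a1, which sets the rate of bile acid formation, differed by -0.31 ± 0.54, and Alas1, the first enzyme of heme synthesis, by -0.21 ± 0.21. Albumin, whose promoter gave Dbp its name, and Fgf21, a hormone gene repressed by Nfil3, were near-constant at 14.3 and 6.97, so their probe sets say nothing about the members' action.

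**Figure D4:**
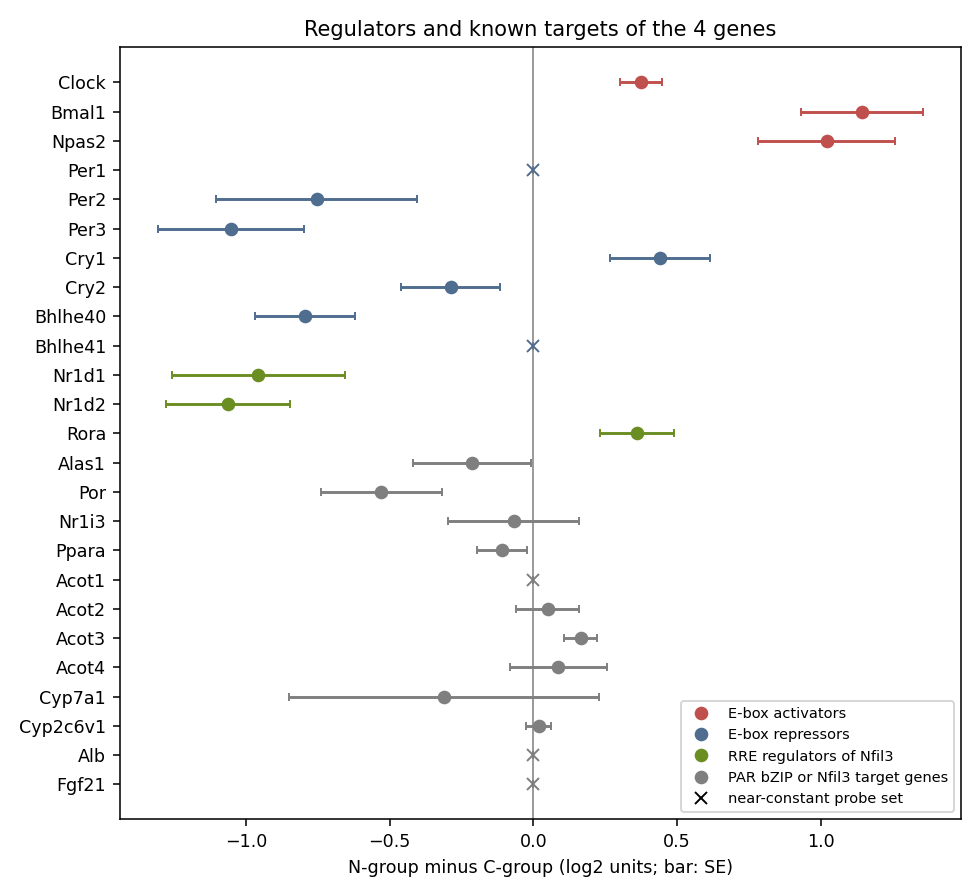
N-group minus C-group difference in log2 units (horizontal axis, bars are SE of the limma fit) of the measured regulators and known targets of the 4 genes, coloured by list, with crosses for near-constant probe sets. The 3 E-box activators lie above 0, Per3, Bhlhe40, Nr1d1 and Nr1d2 lie between -1.06 and -0.79, and most target genes lie near 0.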

How the data were processed

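Biotin-labelled cRNA from 100 ng total RNA per liver was hybridised to rat arrays, per the labels' protocols. The deposited values are log2 signals, 1 for each probe set in each liver. The summary and normalization methods are not given in the sources used here, and log2 was inferred from their range (4.79 to 14.3). Detection calls were not used, and precision is limited by having 5 arrays per diet. The platform table assigned 20826 probe sets to 1 gene, 436 to several and 9780 to none, and 20758 of the first were matched by gene identifier to GRCr8 names. After 57 controls were left out, the diets were compared with limma 3.58.1 (lmFit, eBayes, two-sided) in R 4.3.3 without covariate, with Benjamini-Hochberg adjustment over all 31042 probe sets and a threshold of 0.05. The titles give each animal its own number, so p-values measure the spread between rats. The probe set with the highest mean stood for a gene in lists, likeness and balance. Single differences also had an exact permutation test over all assignments of livers to diets, and relations one over 14400 within-diet permutations. The fit was tested on simulated data. Named genes were the members, the 3 most alike and 3 most opposed genes of each, and the 2 list genes with the smallest p. Rora, Por, Cyp7a1, Alas1, Alb, Fgf21 and Apoa1 were added after their values were seen. Members and lists were chosen with earlier results of these data known. Sequences are RefSeq's.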

Additional observations from a re-analysis of the deposited data

Results flagged for a closer look

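Control animal 11 stood apart as the lowest C-group liver in 3 of the 18 sets of 5 livers examined (8 varying member probe sets and the balance of activators and Nfil3, each per diet). In each, its distance to the next liver, as a share of the spread from lowest to highest, exceeded 0.71. By chance about 1 in 20 such sets does so, which is 0.9 of 18, although sets from one gene or pathway depend on each other. The share was 0.8336 for Dbp, 0.811 for the Tef probe set 1369919_at and 0.9358 for the Hlf probe set 1386641_at. Nfil3 and the balance had no such liver in either diet.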

How the results depend on the processing

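The sign of each member's difference was kept under all alternatives run, with -2.85 to -2.31 for Dbp, -0.75 to -0.55 for Tef, -0.70 to -0.43 for Hlf and 0.47 to 0.77 for Nfil3. These are for the brightest probe set of each gene. The brightest Hlf probe set and Nfil3 passed under none of them (smallest adjusted p by limma 0.0916 and 0.0870), while the Hlf probe set 1374709_at passed under 1, varying probe sets without control animal 11 (-0.42, adjusted p = 0.0452). Restricting the test to varying probe sets called Dbp (-2.46) and 13 probe sets in all, where 0 were called before. Centring the arrays called Dbp (-2.46), Tef (-0.61) and 255 probe sets. By its construction it gave the near-constant probe sets a shared array offset, which raised limma's prior SD to 0.0905 with 15.4 prior degrees of freedom, against 0.000107 and 0.445, so these calls rest on that offset. With each liver left out in turn, 0 to 10 probe sets were called over all, and Dbp lay between -2.85 and -2.31. In alternatives added after seeing the data, varying probe sets gave 0 to 84 calls with each liver left out (84 without control animal 11, 21 without N-group animal 10, 8 without N-group animal 13, 18, 3 and 2 without control animals 2, 5 and 8, and 0 without the other 4), Dbp being called without N-group animal 10 (-2.62) and control animal 11 (-2.85) and Tef without control animal 11 (-0.75), and 22 calls with the animal-number block. The balance of activators and Nfil3 moved by less than 1 SD in all 15 alternatives run. No paired analysis was run because the labels do not say which animals were fed as pairs. Each N-group number is followed by a C-group number (such as 1 and 2, or 7 and 8), and whether these neighbours were pairs is not given. Signals under the array medians, as for Dbp in the N-group, limit what can be said of sizes.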
